A study of Mus musculus with 3 samples.

Results

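The grainyhead-like factors Grhl1, Grhl2 and Grhl3, the ETS factors Elf3, Elf5 and Ehf, the zinc finger repressors Ovol1 and Ovol2, and the splicing factors Esrp1 and Esrp2 were followed across 3 mouse cell samples. They were chosen by gene name, and 13 probes on the array carried an accession of their transcripts, which covered all 10 genes of the 20659 genes named on the array. The samples were LIFR KO cells, which lack the receptor of the cytokine LIF by their label, gp130 KO cells, which by their label lack the signalling subunit that LIFR shares with the IL-6 receptor family, and wildtype cells. All 3 were labelled as mouse embryonic stem cells kept under standard culture conditions with no treatment named, and the strain, the way the knockouts were made and whether each is a single clone were not given in the sources used here. The design compares expression in each knockout with wildtype.

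Each group had 1 single-colour Agilent array, so every difference below is between 2 arrays and no test was possible. The total RNA came from whole cultures, in which fewer cells of a type and less RNA per cell cannot be told apart. Values are the scanner's processed signal, a background-subtracted spot brightness in array units. Ratios were taken after dividing each array by its 75th percentile, and a gene was counted as different at 2-fold or more, which is 1 on the log2 scale. The intervals given with ratios are nominal 95% intervals from the median scatter of repeated spots of similar brightness within an array. Some probes scatter more than the median. For wildtype signals under 100 the median standard deviation was 0.14 (log2) and the 90th percentile 0.29, so the intervals can be too narrow. The intervals also leave out all variation between cultures, so the precision of each ratio is limited by having a single array per group.

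In epithelia, grainyhead-like proteins switch on genes of cell junctions, barriers and surface proteases, and ELF3, ELF5 and EHF are members of the ETS family that act mostly in epithelial cells. OVOL proteins repress drivers of the epithelial-to-mesenchymal transition (EMT) such as Zeb1, and ESRP proteins bind pre-mRNA and favour the epithelial form of transcripts such as that of Fgfr2. Mouse embryonic stem cells are themselves epithelial in character and express E-cadherin.

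Of the 10 genes, 9 were well above background on all 3 arrays, by the scanner software's flag, against 63.5% of all named genes. The exception was Elf5, a factor of trophoblast stem cells and of milk-producing mammary cells. Its signal was 4.24 on the LIFR KO, 2.44 on the gp130 KO and 2.74 on the wildtype array, where the lowest signals well above background were 16.7, 9.66 and 10.5. Elf5 was therefore not well above background on any array and entered no ratio.

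The labelled cell type was borne out only in part by marker genes. Of 16 embryonic stem cell markers 9 passed that flag on every array, and Sox2, Zfp42, Dppa3, Dppa4, Fgf4 and Nr0b1 did so on none. Pou5f1, among the 9, was near the lowest signals well above background, at 22.7 on the LIFR KO, 20.3 on the gp130 KO and 31.2 on the wildtype array. Lin28a, also among the 9, was brighter, at 536, 821 and 727. The 10 stem cell markers that could be compared stayed within 2-fold, with median log2 ratios over wildtype of -0.35 for LIFR KO and 0.04 for gp130 KO. All 15 epithelial markers were well above background on all 3 arrays, as were 7 of 12 fibroblast and feeder cell markers, 5 of the 7 keratinocyte markers on the array and 4 of 10 trophoblast markers, with the trophoblast gene Cdx2 on none. Some fibroblast markers were very bright, such as Vim at 87779 on the LIFR KO, 83486 on the gp130 KO and 73043 on the wildtype array. Lum and Pdgfrb, of the same list, were well above background on no array. Signals of the detected probes for the targeted genes stayed within 2-fold between the arrays. One Lifr probe was detected, at 29.97 on the LIFR KO, 34.7 on the gp130 KO and 34.9 on the wildtype array, and the Il6st probe, for gp130, gave 369, 299 and 329 in the same order. After scaling, the dim Lifr probe had log2 ratios over wildtype of -0.39 for LIFR KO and 0.02 for gp130 KO. Those of the Il6st probe were -0.01 and -0.11. These probes check the labels only if they lie inside the deleted sequence, which is not given in the sources used here, so each array is called the array of its label.

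**Figure D1:**
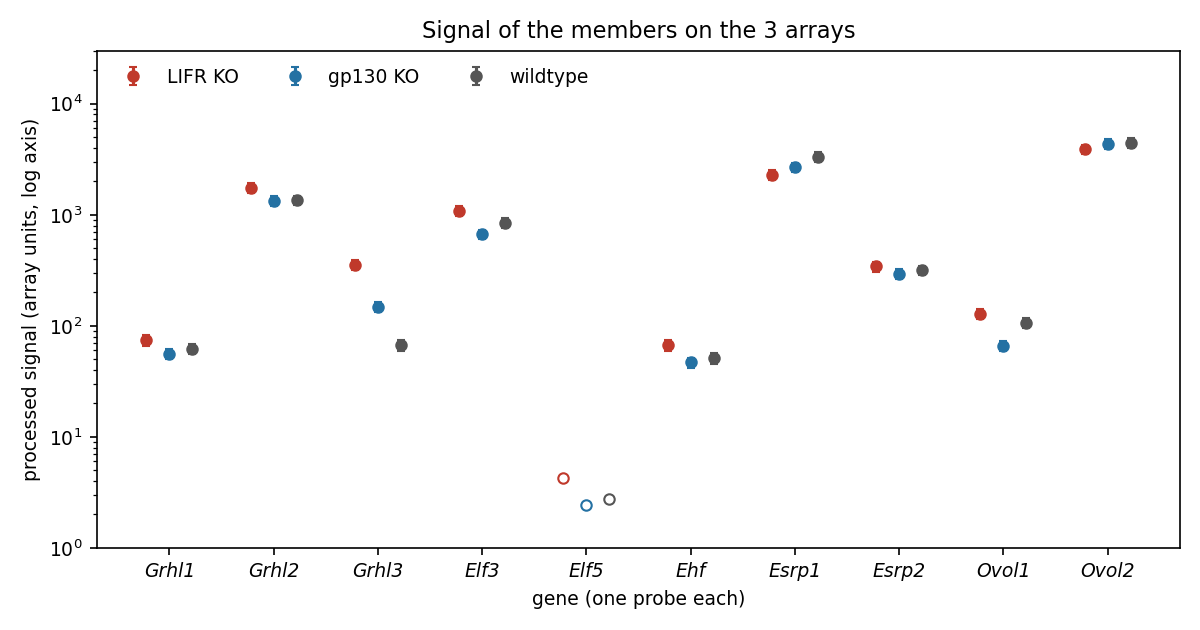
Processed signal (array units, log axis) of 1 probe per gene on the LIFR KO, gp130 KO and wildtype arrays. Bars are the scanner software's error of the spot, mostly smaller than the points, and open points (Elf5, drawn without a bar) were not well above background. Grhl3 stands at 354, 148 and 66.8, while each other detected gene stays within 2-fold of its wildtype value.

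Grhl3 was the member that separated the arrays. Its product is needed in mice for the skin barrier, wound closure and closure of the neural tube. The Grhl3 signal was 354 on the LIFR KO array, 148 on the gp130 KO array and 66.8 on the wildtype array, with scanner errors of 35.7, 15.04 and 7.25. All 3 values were well above background, and the wildtype array was the lowest.

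On the LIFR KO array Grhl3 was 4.69-fold higher than on the wildtype array, a log2 ratio of 2.23 with an interval of 1.95 to 2.51. It was the 1 of 9 detected members past 2-fold. Of the 14542 genes in this comparison, 4.24% differed by 2-fold or more, 2.62% upwards and 1.62% downwards, and Grhl3 was number 47 from the top. On the gp130 KO array Grhl3 was 2.26-fold higher than on the wildtype array, a log2 ratio of 1.18 with an interval of 0.89 to 1.46. Here too it was the only member past 2-fold, while 1.76% of 14915 genes differed by 2-fold or more, 0.979% upwards and 0.784% downwards, and it was number 99 from the top. Both ratios use the same wildtype array. The gp130 KO array was 2.08-fold below the LIFR KO array for Grhl3, a log2 ratio of -1.05 with an interval of -1.19 to -0.91, while 3.35% of 14758 genes differed by 2-fold or more, 1.29% upwards and 2.05% downwards. In each comparison the count for the group rests on this 1 gene.

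The scanner software's own error of each spot is wider than the scatter of repeated spots. With it, the Grhl3 fold ran from 3.51 to 6.27 for LIFR KO over wildtype and from 1.69 to 3.03 for gp130 KO over wildtype. With the normexp background correction, which adds an offset of 50 to every spot, Grhl3 was 3.80-fold higher on the LIFR KO and 1.62-fold higher on the gp130 KO array than on the wildtype array. With the same correction fitted without spots in stray signal, the folds were 2.79 and 1.62, and gp130 KO was 1.72-fold below LIFR KO. The 2-fold call for gp130 KO against wildtype therefore does not hold with this correction, whose offset lowers the ratios of dim spots by construction. The parts of the offset and of the background fit in this were not told apart.

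Grhl3 rests on 1 spot of 1 probe per array. Stray signal, taken as a local background over 2 times the array's median, touched 249 spots of the LIFR KO array, 7 of the gp130 KO and 2 of the wildtype array, and reached 25884 on LIFR KO against a median of 23.5. The Grhl3 spot lay outside it, with a local background of 32 on the LIFR KO, 23 on the gp130 KO and 29 on the wildtype array. Within 3 rows and columns of it, 25 other spots well above background on both arrays had a median log2 ratio of -0.11 for LIFR KO over wildtype, and the highest was 0.40. The 28 such spots for gp130 KO over wildtype had a median of -0.02 and a highest value of 0.26. The neighbouring spots thus did not share the higher values of Grhl3. None of the 13 probes of the group lay in stray signal or carried an outlier flag.

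The promoter of Grhl3 is shown because this gene alone passed 2-fold, with that of its relative Grhl1, which did not, and that of Elf3. RefSeq windows on GRCm38.p6 from 250 bases before to 50 after an annotated start were at hand for 5 of the 10 genes, in 7 windows. That of Grhl3 is chr4:135573583-135573882 on the minus strand, that of Grhl1 chr12:24572037-24572336 on the plus strand and that of Elf3 chr1:135258423-135258722 on the minus strand. Capitals mark CACCTG on either strand, the E-box letters that ZEB and SNAIL repressors bind.
Grhl3: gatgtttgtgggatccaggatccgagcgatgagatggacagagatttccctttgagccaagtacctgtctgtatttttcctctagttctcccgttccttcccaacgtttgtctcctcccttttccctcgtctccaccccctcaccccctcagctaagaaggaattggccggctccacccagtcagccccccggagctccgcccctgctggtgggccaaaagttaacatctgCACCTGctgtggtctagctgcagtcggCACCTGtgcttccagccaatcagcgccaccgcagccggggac
Grhl1: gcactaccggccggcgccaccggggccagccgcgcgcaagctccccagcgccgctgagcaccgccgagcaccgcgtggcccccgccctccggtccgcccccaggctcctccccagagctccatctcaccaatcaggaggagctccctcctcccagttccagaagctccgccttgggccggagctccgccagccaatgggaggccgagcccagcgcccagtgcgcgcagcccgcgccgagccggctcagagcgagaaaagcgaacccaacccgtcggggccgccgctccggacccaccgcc
Elf3: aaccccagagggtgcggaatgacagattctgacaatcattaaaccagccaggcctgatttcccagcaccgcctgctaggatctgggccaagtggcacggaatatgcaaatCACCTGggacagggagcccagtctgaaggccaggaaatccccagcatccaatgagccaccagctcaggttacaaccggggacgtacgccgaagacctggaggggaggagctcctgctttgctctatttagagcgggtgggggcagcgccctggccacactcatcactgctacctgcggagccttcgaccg

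The Grhl3 window held CACCTG at 2 places, 19 bases before and 8 bases after the annotated start, where 2.88% of 32851 promoter windows of that length held it 2 or more times and 20.2% at least once. The Elf3 window held 1 copy. Of the other windows, those of Elf5 held 3 and 1, and those of Grhl1 and Ovol2 held none. The letters AACCGGTT of the grainyhead site, CCGTTA of the OVOL site and TTCNNNGAA of the STAT site were in none of the 7 windows on either strand, and were in 0.146%, 2.76% and 8.30% of all windows. The ETS core GGAA was in all 7, as in 96.0% of all windows, and no 2 different motifs shared a base in them. A match of letters shows no binding.

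**Figure D2:**
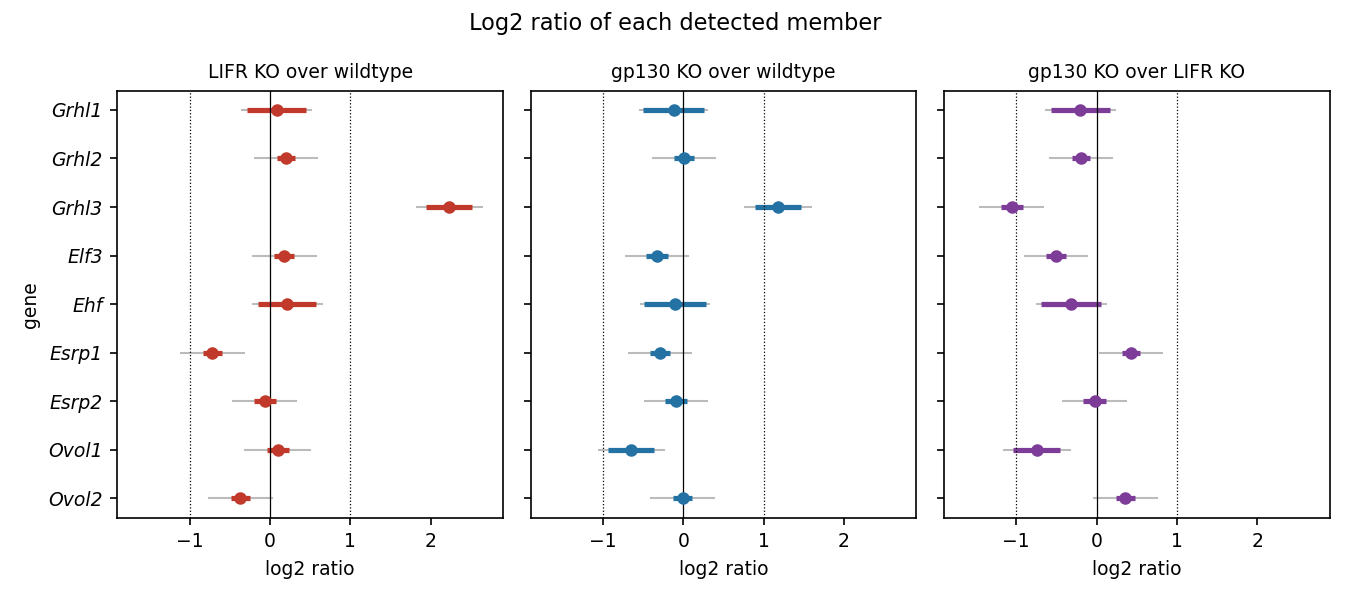
Log2 ratio of each detected member for LIFR KO over wildtype, gp130 KO over wildtype and gp130 KO over LIFR KO, with dotted lines at 2-fold. Thick bars are nominal 95% intervals from the median scatter of repeated spots and thin grey bars those from the scanner software's error. Grhl3 lies at 2.23, 1.18 and -1.05, and no other member passes 2-fold.

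The other grainyhead-like genes stayed within 2-fold. Grhl2, which controls junction genes such as Cdh1 and is needed for neural tube closure in mice, gave 1751 on the LIFR KO, 1333 on the gp130 KO and 1350 on the wildtype array. Its log2 ratio was 0.20 for LIFR KO over wildtype (0.08 to 0.32) and 0.01 for gp130 KO over wildtype (-0.11 to 0.13). The LIFR KO array was thus slightly the highest by this probe, beyond the scatter of spots but within the scanner software's error. The LIFR KO ratio was -0.10 with the normexp correction on all spots and 0.22 with it fitted without spots in stray signal. A second Grhl2 probe, at 24.2, 20.5 and 23.8, gave log2 ratios of -0.15 and -0.19 over wildtype, both within their intervals around 0. Grhl1, a regulator of desmosome genes and of hair anchoring in mice, had 74.4 on the LIFR KO, 56.2 on the gp130 KO and 62.3 on the wildtype array. Its log2 ratios over wildtype were 0.08 (-0.28 to 0.45) for LIFR KO and -0.12 (-0.50 to 0.26) for gp130 KO, so neither array could be told from wildtype for Grhl1 by the scatter of spots.

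Among the ETS factors, Elf3 was lowest on the gp130 KO array. Elf3, a factor of intestinal and other simple epithelia that inflammatory signals can induce, had a signal of 1088 on the LIFR KO, 666 on the gp130 KO and 851 on the wildtype array. The log2 ratio over wildtype was 0.18 (0.05 to 0.30) for LIFR KO and -0.33 (-0.47 to -0.19) for gp130 KO. Between the knockouts, gp130 KO was 1.42-fold below LIFR KO for Elf3, a log2 ratio of -0.51 (-0.63 to -0.38), which also exceeded the scanner software's error. The LIFR KO value of Elf3 turned to -0.01 with the normexp correction on all spots. It was 0.17 with that correction fitted without spots in stray signal.

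The probes of Ehf, a factor of stratified and glandular epithelia, disagreed. The probe with the higher mean signal gave 67.0 on the LIFR KO, 46.7 on the gp130 KO and 51.2 on the wildtype array, and the other gave 23.8, 28.9 and 31.2. For LIFR KO over wildtype their log2 ratios were 0.21 (-0.15 to 0.58) and -0.56 (-0.93 to -0.20), with opposite signs. For gp130 KO over wildtype they were -0.11 and -0.08, both within the scatter of spots. No direction is given for Ehf.

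Ovol1 was lower on the gp130 KO array and Ovol2 on the LIFR KO array, both by less than 2-fold. Ovol1, which restrains proliferation in epidermal and germ cell precursors of mice, gave 128 on the LIFR KO, 66.4 on the gp130 KO and 106 on the wildtype array. Ovol1 was 1.57-fold lower on gp130 KO than on wildtype, a log2 ratio of -0.65 (-0.94 to -0.36), and the log2 ratio for LIFR KO over wildtype was 0.09 (-0.04 to 0.23). Between the knockouts, gp130 KO was 1.68-fold below LIFR KO for Ovol1, a log2 ratio of -0.75 (-1.03 to -0.46). The gp130 KO over wildtype ratio of Ovol1 exceeded both kinds of error. It was -0.29 with the normexp correction, whose offset lowers the ratios of dim spots by construction.

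Ovol2, a repressor of Zeb1 that mouse embryos need for development, gave 3892 on the LIFR KO, 4333 on the gp130 KO and 4444 on the wildtype array. Its log2 ratio over wildtype was -0.37 (-0.48 to -0.25) for LIFR KO, a 1.29-fold lower value, and -0.01 (-0.13 to 0.11) for gp130 KO. The first of these lay outside the scatter of spots and within the scanner software's error, as did the log2 ratio of 0.36 for gp130 KO over LIFR KO.

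Of the splicing factors, Esrp1 was lower on the LIFR KO array by 1 of its 2 probes. Esrp1 gave 2290.0 on the LIFR KO, 2672 on the gp130 KO and 3331 on the wildtype array by the probe with the higher mean signal. That probe was 1.64-fold lower on LIFR KO, a log2 ratio of -0.72 (-0.83 to -0.60), and 1.22-fold lower on gp130 KO, a log2 ratio of -0.29 (-0.41 to -0.17), so the wildtype array was the highest. The second Esrp1 probe, at 78.4, 75.9 and 72.7, gave log2 ratios over wildtype of -0.07 for LIFR KO and 0.09 for gp130 KO, both within its intervals. Whether the 2 probes report different transcripts of the gene is not given in the sources used here.

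Esrp2, the partner gene with overlapping function, had 342 on the LIFR KO, 292 on the gp130 KO and 317 on the wildtype array. Its log2 ratios over wildtype were -0.07 (-0.20 to 0.07) and -0.09 (-0.23 to 0.05), so that differences of Esrp2 beyond 1.15-fold and 1.17-fold lower lay outside the intervals from spots. The LIFR KO ratio of Esrp2 was 0.28 with the normexp correction on all spots and -0.10 with it fitted without spots in stray signal. Scaled to each array's median it was 0.09, so no direction is given for that ratio.

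The 9 detected members had a median log2 ratio of 0.09 for LIFR KO over wildtype, against -0.03 for all genes compared. For gp130 KO over wildtype the median was -0.11, against 0.03 for all genes, and for gp130 KO over LIFR KO it was -0.20, against 0.05. Without Grhl3, the members ran from -0.72 to 0.21 for LIFR KO and from -0.65 to 0.01 for gp130 KO over wildtype. By the scatter of spots 5 of 9 ratios for LIFR KO and 4 of 9 for gp130 KO over wildtype exceeded their error, and 2 of 9 did in each by the scanner software's error. These were Grhl3 and Esrp1 for LIFR KO, and Grhl3 and Ovol1 for gp130 KO. Between the knockouts 6 of 9 exceeded the scatter of spots and 4 the scanner software's error, namely Grhl3, Elf3, Ovol1 and Esrp1. The share of all genes past the same errors was not computed. These counts therefore do not show whether the members differ from other genes. With the normexp correction on all spots Grhl1, Ehf and Ovol1 also passed 2-fold higher and Esrp1 2-fold lower for LIFR KO over wildtype, where 3314 genes over the array were then at least 2-fold higher, and none of the 4 did with that correction fitted without stray signal.

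**Figure D3:**
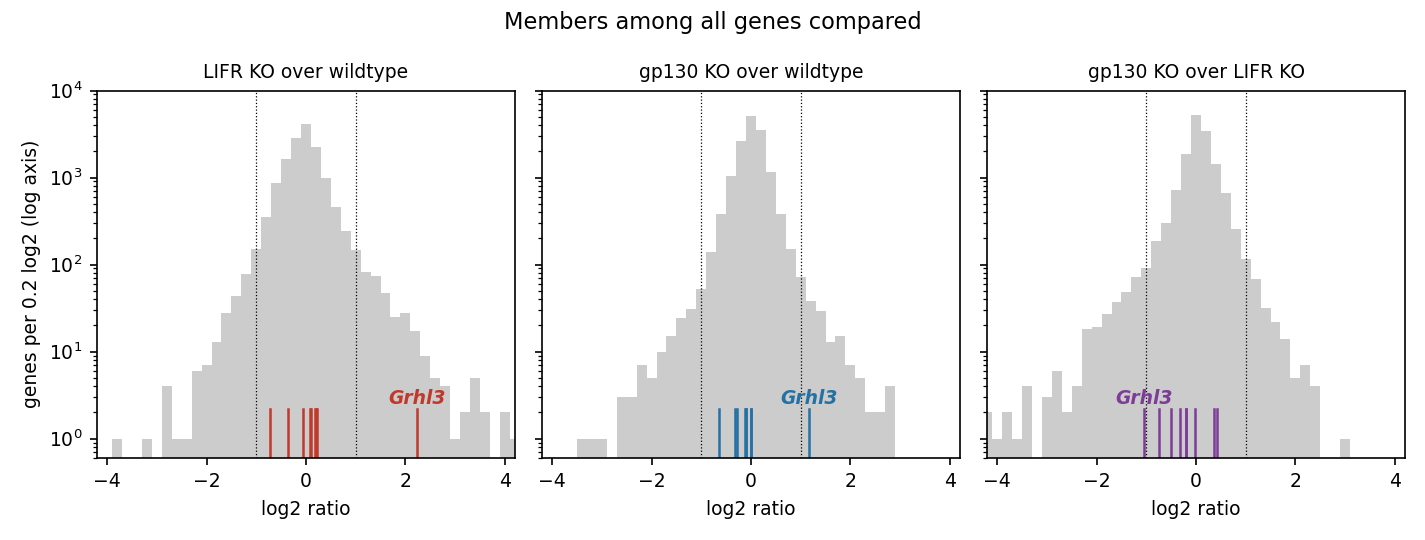
Histograms of the log2 ratio of all genes compared, in bins of 0.2 on a log count axis, with the 9 detected members as coloured ticks and dotted lines at 2-fold. The axis ends at 4.2 on both sides, which leaves out 12 genes above it for LIFR KO over wildtype and 13 below it for gp130 KO over LIFR KO. Grhl3 stands past the dotted lines at 2.23, 1.18 and -1.05, and the other ticks lie between them.

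Genes that the grainyhead-like and OVOL proteins are known to control in epithelia mostly stayed within 2-fold between the arrays. Of 42 such genes compared, 2 were at least 2-fold higher on the LIFR KO array (4.76%, against 2.62% of all genes) and none was lower, with a median log2 ratio of 0.04. They were Prss8, the gene of the membrane protease prostasin, and the tight junction gene Cldn4. Prss8 gave 689 on the LIFR KO, 272 on the gp130 KO and 222 on the wildtype array, a log2 ratio of 1.46 for LIFR KO and 0.32 for gp130 KO over wildtype. Cldn4 gave 322, 150 and 130 on the same arrays, with log2 ratios of 1.14 and 0.24. Both were named because they passed 2-fold, from a list chosen with earlier results of these data known. None of the 42 passed 2-fold for gp130 KO over wildtype, where the median was 0.05. The most brightly measured of them, Krt18 and Lsr, had log2 ratios of 0.18 and 0.05 for LIFR KO and of 0.10 and 0.07 for gp130 KO over wildtype.

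The EMT factors that OVOL and grainyhead-like proteins oppose were partly undetected. Of 10, 5 were detected on every array, and Snai2, Snai3 and Twist2 were so on none. Snai1, a repressor of Cdh1, gave 3186 on the LIFR KO, 691 on the gp130 KO and 661 on the wildtype array, a log2 ratio of 2.09 for LIFR KO and 0.09 for gp130 KO over wildtype. It was the 1 of 6 factors compared to pass 2-fold on LIFR KO, where 2.62% of all genes were at least 2-fold higher. The median of the 6 was -0.03, with the factor Prrx1 entering as a bound. The most brightly measured factors, Tcf4 and Twist1, had log2 ratios over wildtype of 0.13 and -0.19 for LIFR KO and of 0.07 and 0.16 for gp130 KO. The Zeb1 signal was 6.61 on the LIFR KO, 16.4 on the gp130 KO and 9.14 on the wildtype array and was well above background on gp130 KO only. The Zeb2 signal was 637, 538 and 842, with log2 ratios over wildtype of -0.58 for LIFR KO and -0.62 for gp130 KO. The fibroblast gene Col1a1 was also higher on the LIFR KO array, at 257 against 92.9 on gp130 KO and 70.4 on wildtype. Of the 10 fibroblast and feeder cell markers compared it alone passed 2-fold for LIFR KO over wildtype. The share of all genes at least 2-fold higher was 2.62%. The median of the 10 was 0.01, and Lum and Pdgfrb were well above background on no array. Col3a1, Thy1 and Dcn entered that median as bounds, since they were not well above background on LIFR KO. For gp130 KO over wildtype, where 0.979% of all genes were at least 2-fold higher, the 1 past 2-fold was Dcn. It gave 33.6 on gp130 KO and 16.5 on wildtype, both well above background, a ratio of 2.08-fold. The most brightly measured of these markers, Vim and S100a4, had log2 ratios of 0.09 and 0.02 for LIFR KO and of 0.22 and 0.14 for gp130 KO over wildtype. The part of such cells in the Grhl3 values was not tested.

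Genes whose transcripts ESRP proteins splice stayed within 2-fold in total signal. Each of the 17 was detected on every array, and none passed 2-fold in any comparison, with log2 ratios from -0.28 to 0.33 for LIFR KO and from -0.32 to 0.32 for gp130 KO over wildtype. Fgfr2, the textbook ESRP target, gave 37.8 on the LIFR KO, 42.2 on the gp130 KO and 36.4 on the wildtype array. The probes were not assigned to exons here, so the epithelial and mesenchymal forms were not told apart. Of 17 other splicing regulators compared none passed 2-fold. Their median log2 ratio over wildtype was 0.00 for LIFR KO and 0.07 for gp130 KO. The LIFR KO median is the bound of Rbfox1, which was not well above background on that array. Among the 17 was Rbm47, also an epithelial splicing factor, at -0.03 and 0.03. The most brightly measured were Ctnnd1 and Lsr among the spliced genes and Pcbp1 and Hnrnpm among the regulators, with log2 ratios over wildtype between -0.18 (Pcbp1 on LIFR KO) and 0.18 (Hnrnpm on LIFR KO).

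**Figure D4:**
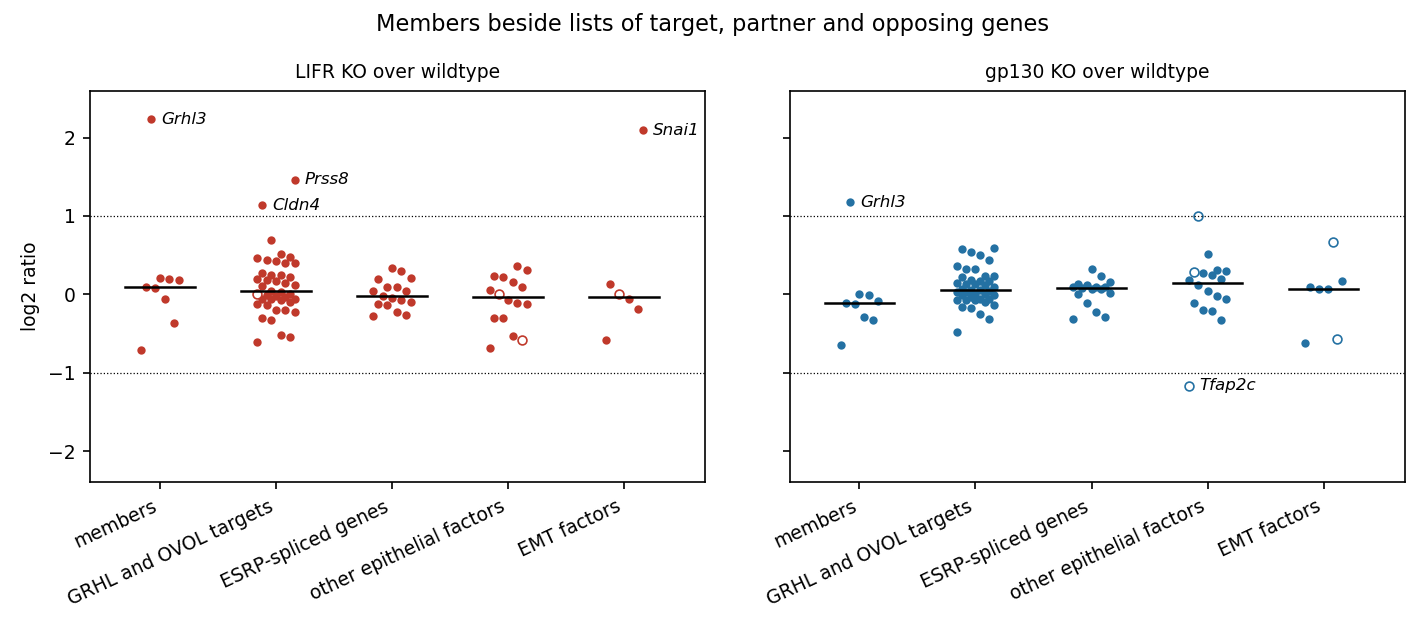
Log2 ratio over wildtype of the members and of 4 lists of related genes, for LIFR KO and gp130 KO, with black bars at the medians and dotted lines at 2-fold. Open points rest on a bound because 1 of the 2 arrays was not well above background. Grhl3, Snai1, Prss8 and Cldn4 lie above 2-fold for LIFR KO, and Grhl3 does for gp130 KO, where Tfap2c lies below 2-fold lower on a bound.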

How the data were processed

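Total RNA of 3 samples, 1 per group, was hybridised as Cy3-labelled cRNA to Agilent arrays, per the labels, of design 026655, built on mm9 and read with Feature Extraction 11.0.1.1, per the file headers, while the submitters' processing notes name version 9.1. Per the file headers, the deposited intensity of a spot is its processed signal from that software. The deposited flags (0 or 1) for spots above background are another kind of value, per the file headers. The authors' log2 series matrix has a median of 5.38 in each column and correlates with the log2 processed signal across probes (r = 0.999, 0.995 and 0.996 for LIFR KO, gp130 KO and wildtype), so its scale and equal medians are known, and the method behind them is not.

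Control and outlier spots were left out (222, 138 and 97 outliers on LIFR KO, gp130 KO and wildtype), log2 signals of repeated spots were averaged, and each array's 75th percentile over non-control spots (750, 652 and 664 in signal) was subtracted. Accessions without versions were matched to RefSeq of GRCm38.p6, which named 27234 of 39429 probes. No array coordinates are given. A gene was read from its probe with the highest mean, and entered a comparison when well above background on at least 1 of the 2 arrays. Where the other was dim, the ratio is a bound, taken against that array's lowest detected signal or the dim value, whichever is higher. Medians of gene lists include such bounds. Spot scatter came from those of 399 probes with 10 spots each whose spots were all well above background, in classes of signal under 100, 100 to 1000 and over 1000, with a median SD of 0.14, 0.050 and 0.044 (log2) on wildtype. The 3 arrays have 1 scan time and 1 slide number, per the file headers. The members and lists were chosen with earlier results of these data known. Named are all members. For other lists the rule was to name those past 2-fold over wildtype, the 2 brightest, and markers at background. It was not followed for every list. No values are given, for example, for the bright stem cell marker Klf2 or the bright ELF3, ELF5 and EHF target or partner gene Tgfbr2. Zeb1, Zeb2, Fgfr2 and Rbm47 were added after their values were seen. The ratio step was tested on simulated data. Alternatives used limma 3.58.1 in R 4.3.3 (normexp, offset 50) and Python 3.11.15.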

Additional observations from a re-analysis of the deposited data

How the results depend on the processing

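No paired analysis was possible because each group has 1 array, and for the same reason no array could be left out. Over 12 alternative settings, Grhl3 stayed at least 2-fold higher for LIFR KO over wildtype in all 12 (2.79-fold to 5.30-fold). It did so in 10 of 12 for gp130 KO over wildtype (1.62-fold to 2.31-fold) and stayed at least 2-fold lower in 11 of 12 for gp130 KO over LIFR KO (1.72-fold to 2.39-fold). Grhl3 has 1 probe and was well above background on every array. Settings that change the probe, the filter on dim probes or the floor therefore could not move it, though the tallies count them. Of 324 values of single members under the 12 settings 63 moved beyond the scatter of spots, and no member past 2-fold changed sign. Many of the 324 could not move for the same reasons, so this share understates how far the results depend on processing. Among smaller ratios over wildtype, signs turned under some setting for Grhl1, Grhl2 and Ehf on both knockouts, for Elf3 and Esrp2 on LIFR KO, and for Esrp1 and Ovol2 on gp130 KO. With normexp 5 members differed by 2-fold or more for LIFR KO over wildtype, 0 for gp130 KO over wildtype and 4 for gp130 KO over LIFR KO. The members added for LIFR KO were Grhl1, Ehf and Ovol1, at 2.64-fold, 2.80-fold and 2.16-fold higher, and Esrp1, at 2.06-fold lower, while 3314 genes over the array were then higher and 96 lower, against 381 and 236. With normexp fitted without stray signal, a setting chosen after seeing the data, no member differed by 2-fold for gp130 KO over wildtype or over LIFR KO (0 in each), and 112 genes were higher and 64 lower for LIFR KO over wildtype. The offset of 50 lowers the ratios of dim spots by construction.

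The median of the members for LIFR KO over wildtype, 0.09, was 0.28 with normexp, 0.25 when scaled to the median, 0.27 with no scaling and -0.066 with the second probe of each gene. For gp130 KO over LIFR KO, -0.20 became -0.35, -0.40 and -0.038 when scaled to the median, with no scaling and with the second probe. These 2 scalings gave a median of all genes for LIFR KO over wildtype of 0.10 and 0.12, against -0.03. The share of higher calls over the array was 61.8% for LIFR KO over wildtype and 77.5% and 79.1% with these scalings. It was 38.7% for gp130 KO over LIFR KO and 24.9% and 20.8% with them. With no filter on dim probes 649 genes were higher and 1018 lower for LIFR KO over wildtype. The lowest spot and the lowest probe well above background coincided, so that setting changed nothing. For the other shifts the cause was not tested.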

Other observations

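Genes that ELF3, ELF5 or EHF bind or act with held the lowest ratio for LIFR KO over wildtype among the gene lists. Over the array 1.62% of genes were at least 2-fold lower for LIFR KO and 0.784% for gp130 KO over wildtype. Of 10 compared in the list, 1 was at least 2-fold lower on each knockout array, the prostaglandin synthesis gene Ptgs2. Its signal was 3187 on the LIFR KO, 4786 on the gp130 KO and 10744 on the wildtype array, with log2 ratios over wildtype of -1.93 and -1.14, and the median of the 10 was -0.25 for LIFR KO and -0.15 for gp130 KO. Pigr, the receptor that carries antibodies across epithelia, gave 21854 on LIFR KO, 13652 on gp130 KO and 15603 on wildtype. The milk genes Wap, Csn2 and Csn3, which ELF5 is known to act on or with in mammary cells, were well above background on no array, as was Elf5 itself.

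Among 7 relatives of the members on the array, namely Tfcp2, Tfcp2l1, Ubp1, Elf1, Elf2, Elf4 and Spdef, none passed 2-fold in any comparison, and the medians over wildtype were -0.16 for LIFR KO and -0.06 for gp130 KO. Elf2 and Elf1, the most brightly measured, had log2 ratios over wildtype of -0.19 and -0.16 for LIFR KO and of 0.11 and -0.20 for gp130 KO. Among other epithelial transcription factors, Cdx2, Foxa2, Foxa3, Nkx2-1, Tfap2b and Zfp750 were well above background on no array. Of the 16 compared for LIFR KO over wildtype none passed 2-fold. Of the 18 compared for gp130 KO over wildtype Tfap2c alone did, at least 2.25-fold lower, against 0.784% of all genes lower. Its signals were 11.9 on LIFR KO, 8.80 on gp130 KO and 22.1 on wildtype. Gata3 and Sox9, the most brightly measured, had log2 ratios over wildtype of 0.10 and 0.23 for LIFR KO. For gp130 KO they were 0.51 and 0.25. A spot of the Gata3 probe lay in stray signal on at least 1 array, so its ratios are less certain.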
